A study of Caenorhabditis elegans with 6 samples.

Results

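The flp genes of Caenorhabditis elegans encode the precursors of FMRFamide-like neuropeptides. They were taken as every protein-coding gene of the deposited table whose name is flp- followed by a number, which gave 31 genes among 46904 rows, of which 22389 carry counts. All 31 flp genes carry counts, and 30 passed the filter on low counts; flp-23 did not. Polyadenylated RNA of adult worms grown on solid medium was sequenced in 6 libraries, 3 of N2, the laboratory wild type, and 3 of linc-4, a CRISPR deletion of a long intergenic non-coding RNA in the N2 background. No transgene or further allele is named for either group. The labels do not say whether the libraries of a group came from separate cultures or whether the deletion line is 1 clone, so p-values measure the spread between these libraries, which may be technical.

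A flp precursor is cut next to basic residues by a proprotein convertase, trimmed by a carboxypeptidase and amidated at the C-terminus, and many precursors release several peptides that end in arginine and phenylalanine amide. The peptides are packed into dense core vesicles, released mainly by neurons, and act on G-protein-coupled receptors at a distance from the release site. In the worm they are known from locomotion, feeding, egg laying, sleep, mating and oxygen and carbon dioxide responses.

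Total counts ran from 3736372 in wild type 1, the shallowest library, to 12790323 in linc-4 3, the deepest. Reads of linc-4 itself numbered 193, 345 and 234 in the wild type libraries and 5, 1 and 1 in the linc-4 libraries, so each library matched its label. Reads of flp genes numbered from 2822 to 5343 in wild type and from 6967 to 13329 in linc-4. A floor of 3 reads stood for 0.771 CPM, counts scaled to libraries of equal size, in wild type 1 and for 0.228 CPM in linc-4 3, counting error only. RNA came from adult worms, which hold many tissues, and a bulk sample cannot tell fewer cells of a type from less RNA per cell. Marker lists of other tissues differed between the groups without overlap: summed germline markers lay at 1222 to 1245 CPM in wild type and 823 to 901 CPM in linc-4, oocyte and eggshell markers at 4645 to 5707 and 3274 to 3405 CPM, and sperm markers at 219 to 311 and 440 to 501 CPM. None of the marker genes of these 3 lists was at 0 in all libraries. Their part in the results on flp genes was not tested.

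Of the 30 tested flp genes, 8 rose in linc-4, none fell, and 22 did not pass the test (limma-voom, Benjamini-Hochberg adjusted p under 0.05 over 13778 genes). The 8 were flp-8, flp-14, flp-18, flp-21, flp-12, flp-3, flp-6 and flp-9, with increases from 1.41-fold to 1.96-fold. Over all tested genes, 11.5% were called higher and 7.18% lower, against 26.7% of the tested flp genes called higher. At an unadjusted p under 0.05, 12 flp genes were higher and 0 lower, limma-trend on log2(CPM + 1) called 8 higher and 0 lower, and the authors' deposited table calls 4 higher and 0 lower, where 6.59% of its genes are called higher. That limma-trend fit called 12.5% of all tested genes higher. At the unadjusted p, 2175 of the 13778 tested genes were lower, and the number of all genes higher is not given here. The log2 fold change was above 0 for 26 of the 30 and below 0 for 4, while 48.8% of all tested genes were above 0. The median log2 fold change was 0.31 over the tested flp genes and −0.01 over all tested genes. All 3 linc-4 libraries lay above all 3 wild type libraries for 13 flp genes, against 21.2% of all tested genes, and below for 0 flp genes, against 17.7%. With upper-quartile scaling the calls over all genes went from 1591 higher and 989 lower to 2065 and 476, the median of all tested genes from −0.01 to 0.10 and that of the flp genes from 0.31 to 0.42. With scaling to pan-neuronal markers the calls over all genes were 1958 higher and 445 lower. The count of 8 rests on the libraries used: leaving out wild type 1, 2 or 3 gave 4, 7 and 3 calls, and leaving out linc-4 1, 2 or 3 gave 5, 3 and 6, of which the 6 include flp-20, which is not among the 8. In the same order, these fits called 6.08%, 12.4%, 7.37%, 8.15%, 4.98% and 8.70% of all tested genes higher.

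**Figure D1:**
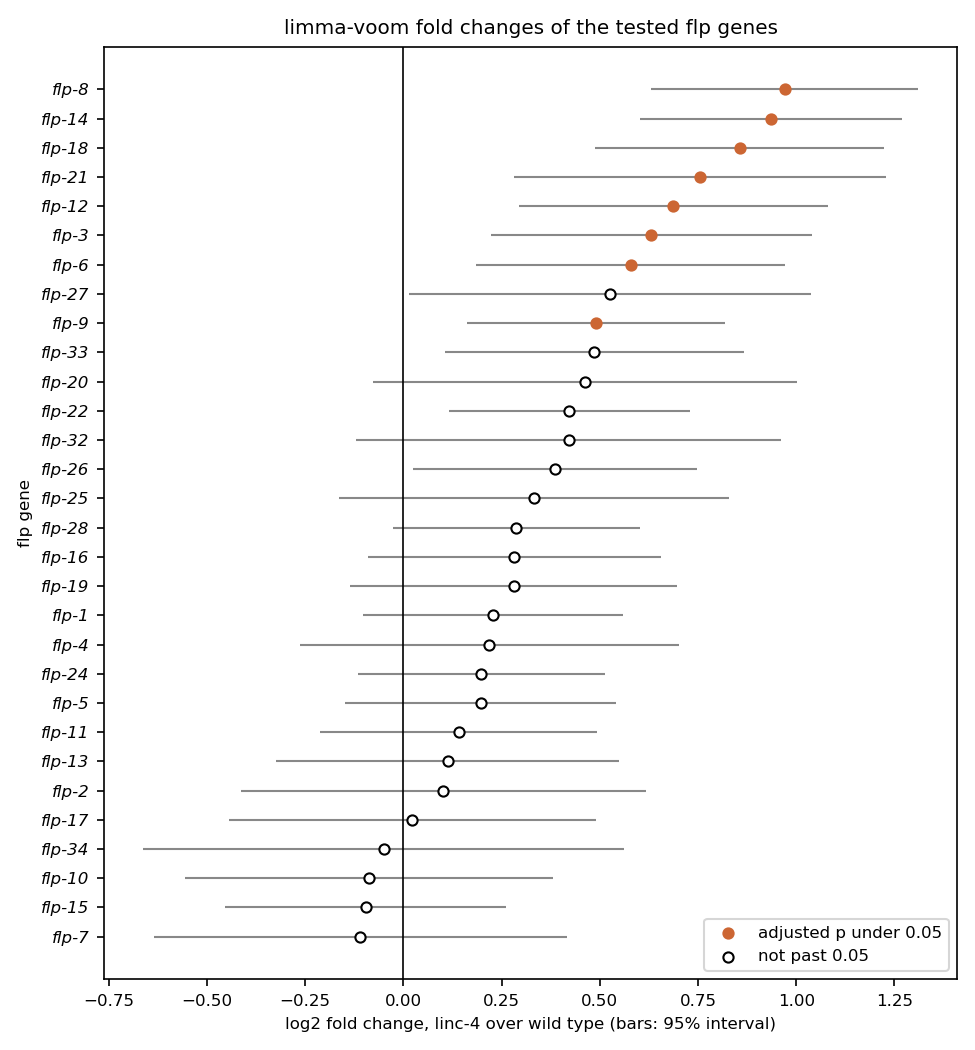
Log2 fold change of each of the 30 tested flp genes, linc-4 over wild type, with its 95% confidence interval (limma-voom, 3 libraries per group). The 8 genes that passed the adjusted threshold (filled) lie from 0.49 to 0.97, with flp-27, which did not pass, among them at 0.53, and the interval of every other gene reaches no further than 1.04.

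Among the precursors that rose, flp-8 had the largest change. flp-8 (WBGene00001451, chromosome X, 14881419 to 14882300 of WBcel235, plus strand) is made in the oxygen-sensing URX neurons and acts in male turning behaviour. In the order of their replicate numbers, the wild type libraries held 60.9, 60.4 and 45.1 CPM and the linc-4 libraries 99.1, 106 and 118 CPM, an order kept for all values below. Every linc-4 library lay well above every wild type library, and the groups were further apart than their own spread. The group means were 55.5 ± 9.0 and 107.9 ± 9.81 CPM (SD of 3 libraries), a 1.96-fold rise with a log2 fold change of 0.97 (SE 0.16, 95% interval 0.63 to 1.31, limma-voom adjusted p = 0.0016).

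flp-14 (WBGene00001457, chromosome III, 12910510 to 12914930, plus strand) showed a change of nearly the same size. Its level was 48.3, 49.0 and 38.6 CPM in wild type and 76.3, 91.9 and 91.1 CPM in linc-4, again with no overlap. The group means were 45.3 ± 5.83 and 86.5 ± 8.80 CPM (SD of 3 libraries), a 1.91-fold rise with a log2 fold change of 0.94 (SE 0.15, 95% interval 0.60 to 1.27, limma-voom adjusted p = 0.0018).

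flp-18 (WBGene00001461, chromosome X, 3012190 to 3018555, minus strand) encodes ligands of the receptors NPR-1, NPR-4 and NPR-5, with roles in foraging and fat storage. Its wild type libraries held 27, 28.3 and 20.4 CPM and its linc-4 libraries 45.7, 50.1 and 41 CPM. The lowest linc-4 library was above the highest wild type library. The group means were 25.2 ± 4.25 and 45.6 ± 4.51 CPM (SD of 3 libraries), a 1.81-fold rise with a log2 fold change of 0.86 (SE 0.17, 95% interval 0.49 to 1.22, limma-voom adjusted p = 0.0055). These 3 genes, flp-8, flp-14 and flp-18, passed the threshold in each of the 6 fits that left out 1 library, with a largest adjusted p of 0.014, 0.018 and 0.037 (limma-voom).

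flp-21 (WBGene00001464, chromosome V, 7793367 to 7794025, plus strand) encodes another ligand of NPR-1, the receptor that sets social feeding. It held 8.23, 10.4 and 6.31 CPM in wild type and 11.9, 15.3 and 14.8 CPM in linc-4. The groups did not overlap, although linc-4 1 was only slightly above wild type 2. The increase was 1.69-fold, with group means of 8.30 ± 2.02 and 14 ± 1.83 CPM (SD of 3 libraries) and a log2 fold change of 0.75 (SE 0.22, limma-voom adjusted p = 0.032), and the call ended without wild type 1 or 3, at adjusted p of 0.086 and 0.13, and without linc-4 2 or 3, at 0.11 and 0.071.

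flp-12 (WBGene00001455, chromosome X, 4591281 to 4592404, minus strand), like flp-8, acts in male turning behaviour. Its values were 36.3, 61.7 and 41.3 CPM in wild type and 69.0, 76.2 and 76.3 CPM in linc-4. Wild type 2 stood apart from the other wild type libraries and nearer to linc-4, and the groups still did not overlap. It rose 1.61-fold, with group means of 46.4 ± 13.4 and 73.8 ± 4.18 CPM (SD of 3 libraries) and a log2 fold change of 0.69 (SE 0.18, limma-voom adjusted p = 0.022), and leaving out wild type 1, wild type 3 or linc-4 2 ended the call, at adjusted p of 0.11, 0.073 and 0.082.

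flp-3 (WBGene00001446, chromosome X, 10091961 to 10092964, minus strand) acts in male mating behaviour. It was counted at 7.97, 9.74 and 7.76 CPM in wild type and at 13.3, 12.5 and 13.9 CPM in linc-4. The linc-4 libraries were close to each other and all above wild type. The rise was 1.55-fold, with group means of 8.49 ± 1.09 and 13.2 ± 0.730 CPM (SD of 3 libraries) and a log2 fold change of 0.63 (SE 0.19, limma-voom adjusted p = 0.036), and of the fits without 1 library only that without wild type 2 kept the call, with adjusted p from 0.077 to 0.11 in the other 5.

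flp-6 (WBGene00001449, chromosome V, 9471975 to 9473796, plus strand) is made in the thermosensory AFD and salt-sensing ASE neurons. Its values were 27, 19.9 and 17 CPM in wild type and 30.9, 33.7 and 28.6 CPM in linc-4. Wild type 1 lay just below the lowest linc-4 library. The rise was 1.49-fold, with group means of 21.3 ± 5.16 and 31.1 ± 2.55 CPM (SD of 3 libraries) and a log2 fold change of 0.58 (SE 0.18, limma-voom adjusted p = 0.043), and the call ended without wild type 2 or 3, at adjusted p of 0.077 and 0.16, and without linc-4 1 or 2, at 0.090 and 0.15.

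flp-9 (WBGene00001452, chromosome IV, 12754558 to 12757673, minus strand) stood at 31.4, 41.3 and 38.1 CPM in wild type and at 50.4, 55.4 and 50.5 CPM in linc-4. The groups did not overlap, and the linc-4 libraries were closer to each other than the wild type libraries. It rose 1.41-fold, with group means of 36.9 ± 5.04 and 52.1 ± 2.85 CPM (SD of 3 libraries) and a log2 fold change of 0.49 (SE 0.15, limma-voom adjusted p = 0.040), the smallest change among the 8, and the call was kept only without wild type 2, with adjusted p from 0.063 to 0.14 in the other 5 fits.

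**Figure D2:**
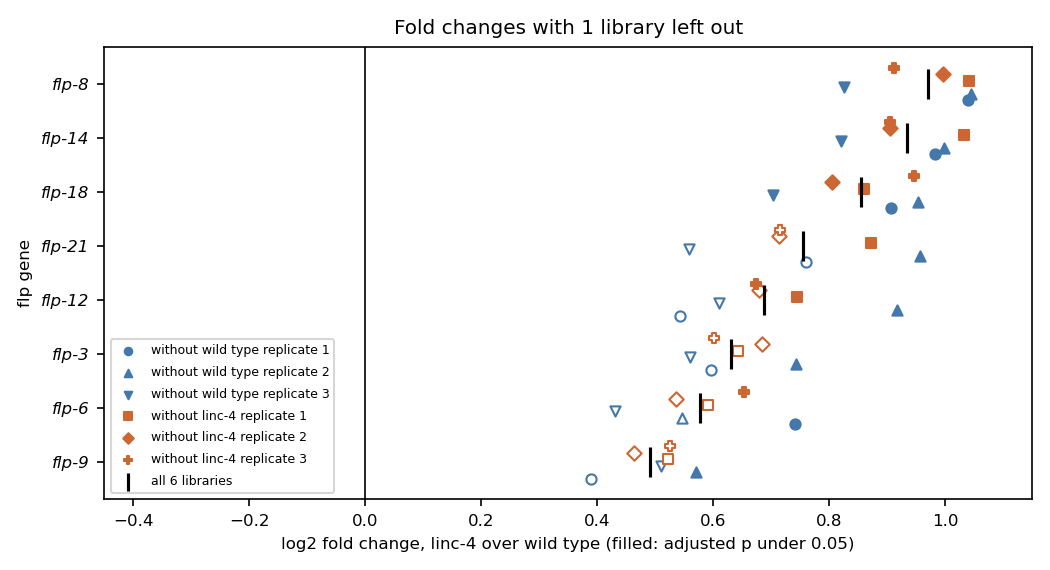
Log2 fold change of the 8 flp genes that rose, linc-4 over wild type, with all 6 libraries (black bar) and in each of the 6 fits that left out 1 library (filled symbols passed the adjusted threshold, open symbols did not). Every value is above 0, and flp-8, flp-14 and flp-18 have filled symbols throughout. Each of the 8 genes had all linc-4 libraries above all wild type libraries, so leaving 1 out could hardly turn the sign. The kept sign is therefore not read as support.

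The authors' deposited table gives the same direction for these 8 genes, with log2 fold changes from 0.47 for flp-9 to 0.94 for flp-8. It rests on the same counts, so the shared direction is not read as support. In the authors' deposited table, flp-8 (adjusted p = 2.2e-05), flp-14 (adjusted p = 3.8e-05), flp-18 (adjusted p = 0.0012) and flp-12 (adjusted p = 0.024) are under 0.05, while flp-21, flp-9, flp-6 and flp-3 lie at adjusted p of 0.058, 0.074, 0.090 and 0.097.

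A further 5 genes, flp-22, flp-33, flp-26, flp-28 and flp-13, were higher in every linc-4 library than in any wild type library but did not pass the test. flp-22 had 50.9, 50.4 and 42.2 CPM in wild type and 62.4, 63.3 and 65.9 CPM in linc-4, with a log2 fold change of 0.42 (95% interval 0.12 to 0.73, limma-voom adjusted p = 0.054). For flp-33 the values were 11.3, 13.2 and 12.1 CPM in wild type and 15.9, 19.3 and 17 CPM in linc-4, with a log2 fold change of 0.49 (95% interval 0.11 to 0.87, limma-voom adjusted p = 0.070). These 2 genes passed the threshold when libraries were scaled by upper quartiles or by the pan-neuronal markers. flp-13, which encodes sleep-promoting peptides of the ALA neuron that act through DMSR-1, had closely grouped values, 6.43, 6.24 and 6.49 CPM against 6.91, 6.68 and 7.16 CPM. Its groups were fully separated but differed by a log2 fold change of only 0.11 (95% interval −0.32 to 0.55, limma-voom adjusted p = 0.73).

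**Figure D3:**
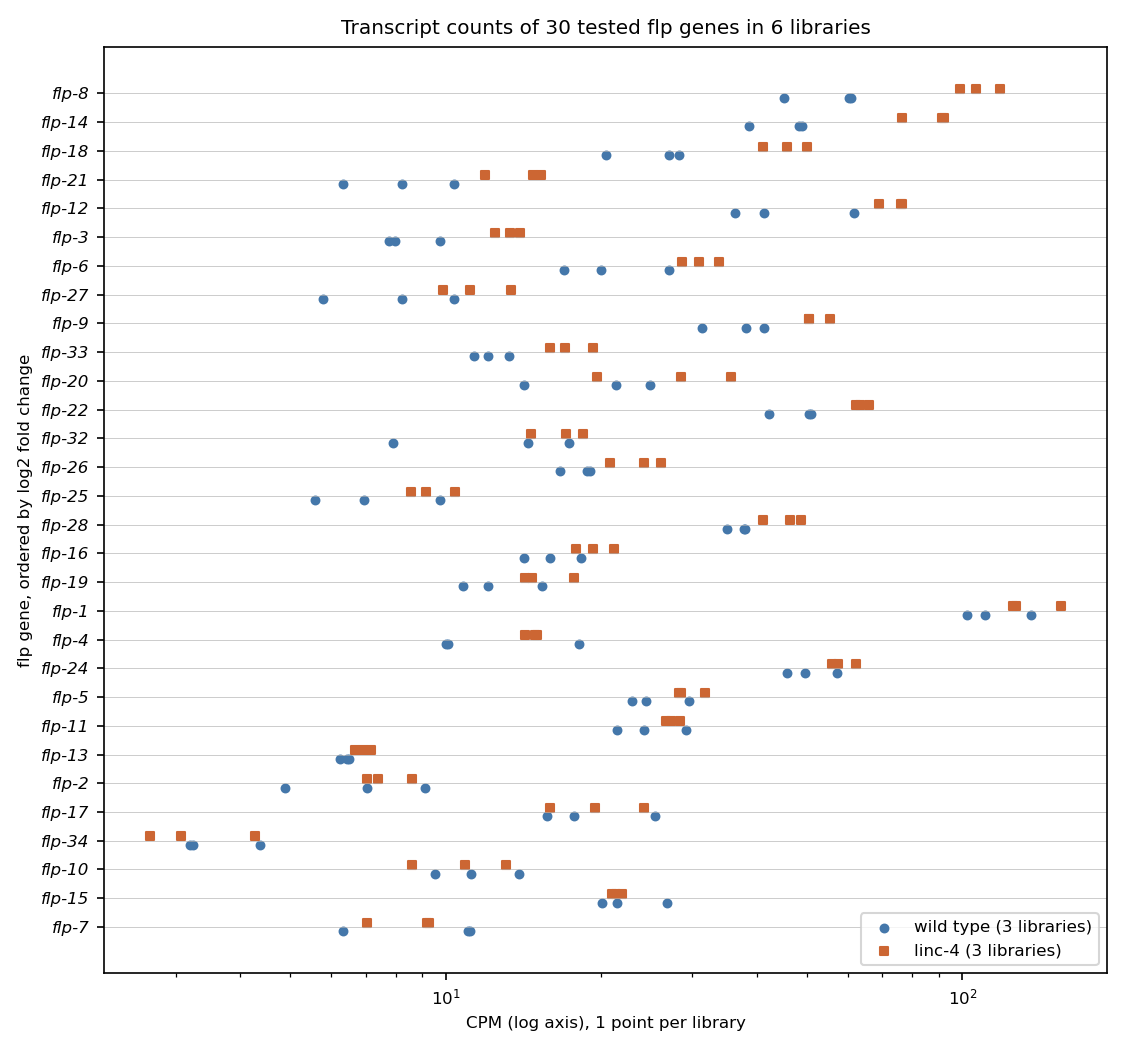
CPM of each flp gene in the 3 wild type and 3 linc-4 libraries on a log axis. Points of the 2 groups are separated for the 13 genes whose linc-4 libraries all lie above wild type, from flp-8 at 45.1 to 60.9 against 99.1 to 118 CPM to flp-13 at 6.24 to 6.49 against 6.68 to 7.16 CPM.

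The other precursors with a role in sleep or arousal overlapped between the groups. flp-11, the sleep-promoting precursor of the RIS interneuron, was at 24.2, 29.2 and 21.5 CPM in wild type and 28.4, 26.7 and 27.3 CPM in linc-4, so that linc-4 fell within the wild type range (log2 fold change 0.14, 95% interval −0.21 to 0.49). flp-24, a sleep-promoting peptide of the ALA neuron, had 49.6, 57.2 and 45.8 CPM in wild type and 57.5, 62.1 and 55.9 CPM in linc-4 with overlapping groups (log2 fold change 0.20, 95% interval −0.12 to 0.51). flp-2, which acts in arousal and locomotion during lethargus, lay at 4.89, 9.13 and 7.04 CPM against 7.04, 8.62 and 7.39 CPM, and wild type held both its lowest and its highest library (log2 fold change 0.10, 95% interval −0.41 to 0.62). None of these passed the test, and each interval includes 0.

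The ligands of EGL-6, a receptor that inhibits egg laying, overlapped between the groups. flp-10 stood at 9.51, 13.9 and 11.2 CPM in wild type and 10.9, 8.62 and 13.1 CPM in linc-4, overlapping throughout (log2 fold change −0.09, 95% interval −0.56 to 0.38, limma-voom adjusted p = 0.80). flp-17, made in the gas-sensing BAG neurons, held 17.7, 25.4 and 15.7 CPM against 15.9, 19.5 and 24.1 CPM, and the order of its libraries mixed both groups (log2 fold change 0.02, 95% interval −0.44 to 0.49, limma-voom adjusted p = 0.95). flp-19, made in BAG and URX, was at 10.8, 15.4 and 12.1 CPM in wild type and 14.2, 14.7 and 17.7 CPM in linc-4, with overlap (log2 fold change 0.28, 95% interval −0.14 to 0.70). Precursors made in BAG or URX thus include flp-8, which rose, and flp-17 and flp-19, which did not pass the test, and no difference between these genes was tested.

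The remaining members with a described role did not pass the test. flp-1, whose peptides from the AVK interneurons regulate locomotion, had 102, 111 and 136 CPM in wild type and 155, 127 and 125 CPM in linc-4, and wild type 3 lay above the lower linc-4 libraries (log2 fold change 0.23, 95% interval −0.10 to 0.56, limma-voom adjusted p = 0.31). flp-20, made in touch receptor neurons, varied widely within both groups, at 21.3, 14.2 and 24.9 CPM against 35.7, 28.5 and 19.6 CPM, where linc-4 3 fell inside the wild type range (log2 fold change 0.46, 95% interval −0.08 to 1.00, limma-voom adjusted p = 0.21). Without linc-4 3 its log2 fold change was 0.73 and it passed the threshold (limma-voom adjusted p = 0.047), while in the other 5 fits without 1 library it did not. mec-17, a tubulin acetyltransferase of the same touch receptor neurons, rose, with group means of 16.4 ± 2.0 and 30.6 ± 4.88 CPM (SD of 3 libraries, limma-voom adjusted p = 0.0065). Its exons share 51 bases with arf-5 on the opposite strand, which has 5786 reads. The other mec genes among the neuron class markers, mec-3, mec-4, mec-7, mec-12 and mec-18, were not called. Only 16 of the 25 markers of that list were tested, so a gene not called may be a gene not tested.

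flp-7, released by neurons to regulate intestinal fat through NPR-22, had the lowest fold change of the family. Its values were 11.1, 11.1 and 6.31 CPM in wild type and 7.04, 9.21 and 9.29 CPM in linc-4, with linc-4 inside the wild type range (log2 fold change −0.11, 95% interval −0.64 to 0.42). flp-15, a ligand of NPR-3, held 20.1, 26.8 and 21.5 CPM against 21.9, 21.4 and 20.9 CPM, and its linc-4 libraries were nearly equal (log2 fold change −0.10, 95% interval −0.45 to 0.26). flp-34, which acts in olfactory learning through NPR-11, was at 4.37, 3.20 and 3.25 CPM against 3.07, 2.67 and 4.26 CPM (log2 fold change −0.05, 95% interval −0.66 to 0.56). The sign of these small differences depended on settings: flp-10, flp-15 and flp-34 turned positive with upper-quartile and pan-neuronal scaling, and flp-7 with some libraries left out.

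flp-4, a ligand of NPR-4, and flp-5, which stimulates the pharynx, had log2 fold changes of 0.22 and 0.20. flp-4 was at 10, 18.1 and 10.1 CPM in wild type against 14.9, 15 and 14.2 CPM in linc-4, with wild type 2 the highest library of all. For flp-5 the libraries ran from 22.9 to 29.5 CPM in wild type and from 28.3 to 31.8 CPM in linc-4, with overlap. The other members have no role given here. flp-26 had 18.8, 19 and 16.6 CPM in wild type and 20.7, 24.2 and 26.1 CPM in linc-4, without overlap (log2 fold change 0.39, 95% interval 0.02 to 0.75, limma-voom adjusted p = 0.12). flp-27 had 8.23, 10.4 and 5.77 CPM against 9.86, 11.1 and 13.4 CPM, where linc-4 1 fell below wild type 2 (log2 fold change 0.53, 95% interval 0.01 to 1.04, limma-voom adjusted p = 0.13). flp-16, flp-25 and flp-32 overlapped between the groups, with log2 fold changes of 0.28, 0.33 and 0.42, and did not pass.

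flp-23 (chromosome III) had 0 reads in each wild type library and 1, 0 and 2 reads in the linc-4 libraries. Both groups were at or under 3 reads, so no fold is given, and at this depth a difference was not detectable. Among the 22 tested genes that did not pass, the upper end of the 95% interval was above 1 on the log2 scale for only 2, flp-20 at 1.00 and flp-27 at 1.04.

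Summed over the family, flp reads made up 0.0755%, 0.0719% and 0.0701% of all reads in the wild type libraries, against 0.104%, 0.106% and 0.104% in the linc-4 libraries. In CPM the sum was 726, 813 and 714 in wild type and 1009.6, 1035 and 1015 in linc-4, a ratio of means of 1.36. The linc-4 libraries were close together and all above the wild type libraries. flp-1 held 12.3% to 19% of the sum, and without it the sums were 624, 703 and 578 CPM against 854, 908 and 890 CPM.

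The pan-neuronal markers are genes that nearly all neurons share, most of them of the synaptic vesicle cycle, and none of them passed the test. Their sum was 474, 543 and 515 CPM in wild type and 482, 479 and 468 CPM in linc-4. linc-4 1 and linc-4 2 lay inside the wild type range near its low end, and linc-4 3 lay just below it. Of 18 tested pan-neuronal genes, limma-voom called 0 higher and 0 lower, at an unadjusted p under 0.05 it gave 0 higher and 1 lower, and limma-trend and the authors' deposited table each called 0. Over all tested genes limma-voom called 11.5% higher and 7.18% lower, so few calls would stand for that share among 18 genes. The count of 0 is not read as a lack of change. Their median log2 fold change was −0.07. The summed flp CPM was 1.53, 1.5 and 1.39 times the pan-neuronal sum in wild type and 2.09, 2.16 and 2.17 times in linc-4. snb-1, the vesicle protein synaptobrevin, held 57.4% to 62.6% of the pan-neuronal sum, and without it the ratios were 3.59, 4.0 and 3.61 in wild type against 5.15, 5.10 and 5.20 in linc-4.

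Of the 16 tested markers of neurotransmitters and neuron classes, 1 rose, mec-17, and 2 fell. With 11.5% of all tested genes called higher and 7.18% lower, these counts are not read as results about the list. tdc-1, the tyrosine decarboxylase of tyramine synthesis, fell by 0.71 on the log2 scale (group means 62.6 ± 5.74 and 38 ± 0.159 CPM, SD of 3 libraries, limma-voom adjusted p = 0.0053), and tbh-1, the hydroxylase that makes octopamine from tyramine, fell by 0.48 (limma-voom adjusted p = 0.049), a call lost in each of the 6 fits without 1 library. Both genes are also expressed in the gonadal sheath, and exons of both overlap other genes on the opposite strand.

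Markers of the other tissues in a whole worm were counted as well. Of germline markers 7 of 18 fell and 0 rose, of oocyte and eggshell markers 15 of 17 fell and 0 rose, and of sperm markers 9 of 16 rose and 0 fell. Body wall muscle had 2 of 18 higher and 0 lower, intestine 3 of 14 higher and 1 lower, and epidermis 2 of 16 higher and 1 lower. Of 9 markers of the vulva, egg-laying muscle and somatic gonad, limma-voom called 0, with 0 at an unadjusted p under 0.05 and 0 in limma-trend and in the authors' deposited table. Of all tested genes 11.5% were called higher and 7.18% lower, and the counts of muscle, intestine and epidermis are not read as results about those lists. Without linc-4 2, the calls were 1 for germline, 6 for oocyte and eggshell, 5 for sperm, 1 for muscle, 2 for intestine and 1 for epidermis markers. That fit called 674 of 13529 tested genes higher and 158 lower, against 1591 and 989 of 13778 with all libraries. Germline calls were 11 without wild type 2, where 1676 of 13568 tested genes were called higher and 1196 lower. Sperm calls were 5 without wild type 1 and without wild type 3, where 837 and 1011 genes were called higher. Muscle calls were 5 with upper-quartile and 4 with pan-neuronal scaling, intestine calls were 2 without wild type 1, wild type 3 or linc-4 3, and epidermis calls were 1 without wild type 1 and in the authors' deposited table. Body wall muscle sums were 4760.1 to 5507 CPM in wild type and 6117 to 7081 CPM in linc-4. The part of any tissue in the flp results was not tested.

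**Figure D4:**
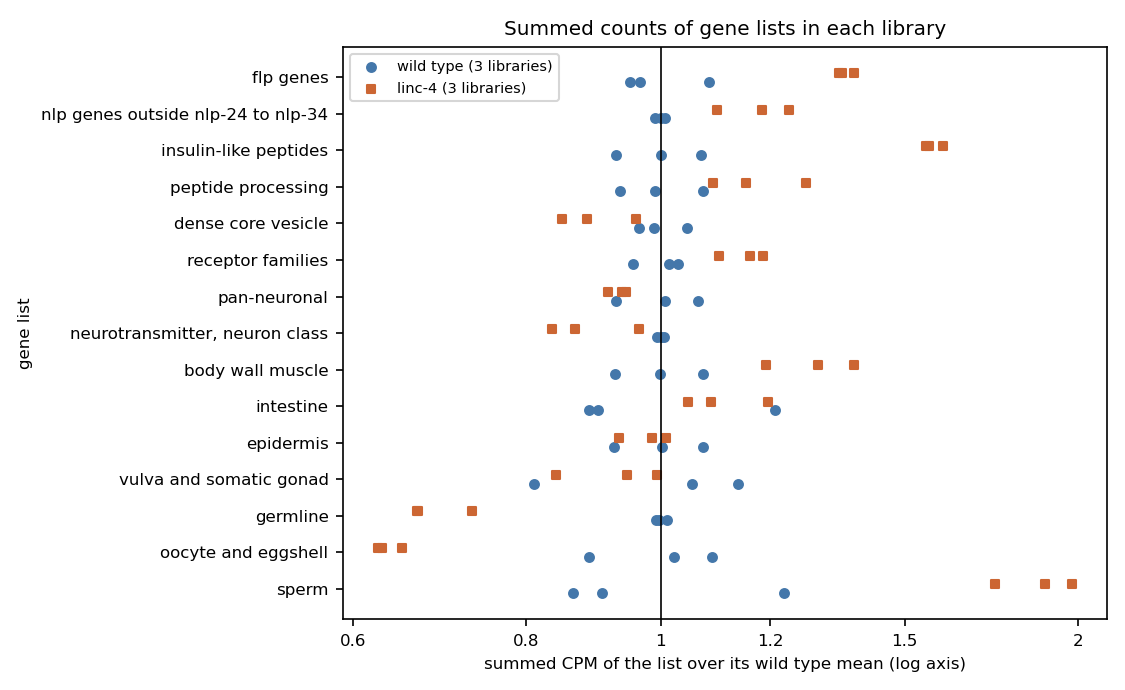
Summed CPM of each gene list in each library, divided by the mean of the 3 wild type libraries (log axis), with wild type as circles and linc-4 as squares. The linc-4 sums of flp genes lie above wild type with a ratio of means of 1.36, the pan-neuronal sums at 0.933, and the germline, oocyte and sperm sums at 0.689, 0.635 and 1.87.

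Among 13 tested genes of peptide processing, 2 rose and 0 fell, where 11.5% of all tested genes were called higher, so the count is not read as a result about the list. The list held 1 call in the authors' deposited table, 0 calls without wild type 3 or without linc-4 2, and 1 call without wild type 1, linc-4 1 or linc-4 3. The called genes were pamn-1 and pgal-1. pamn-1, an alpha-amidating monooxygenase of C-terminal amidation, had 1.80, 1.22 and 1.62 CPM in wild type and 3.46, 3.27 and 3.65 CPM in linc-4, without overlap. It rose 2.23-fold (log2 fold change 1.16, limma-voom adjusted p = 0.023), on 7 to 9 reads per wild type library. The call ended without wild type 2 or 3 and without linc-4 2 or 3, with a largest adjusted p of 0.065 (limma-voom). pgal-1, the lyase of the second amidation step, had 34.5, 34.6 and 33 CPM in wild type and 49.6, 56.2 and 44.9 CPM in linc-4, a 1.46-fold rise (log2 fold change 0.55, limma-voom adjusted p = 0.024). That call ended without wild type 1 or 3 and without linc-4 1 or 2, with a largest adjusted p of 0.11 (limma-voom). Its exons share 25 bases with F21F3.6 on the opposite strand, which has 5578 reads. pghm-1, the monooxygenase of the first step, was at 15.7, 26.6 and 15.2 CPM against 22.5, 30.5 and 30.6 CPM, with overlap, and did not pass (log2 fold change 0.55, limma-voom adjusted p = 0.098). The convertase egl-3, its chaperone sbt-1 and the carboxypeptidase egl-21 had log2 fold changes of 0.23, 0.31 and 0.07 and did not pass.

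Dense core vesicle genes gave 0 calls among 10 tested in limma-voom, 0 at an unadjusted p under 0.05, and 0 in limma-trend and in the authors' deposited table, and their median on the log2 scale was −0.02. With 11.5% of all tested genes called higher and 7.18% lower, 0 calls among 10 genes is not read as a lack of change. Their sum lay at 248 to 268 CPM in wild type and 218 to 247 CPM in linc-4. Most of it was unc-108, with group means of 163 and 147 CPM in wild type and linc-4, so the sum says little about the other genes.

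Receptor transcripts were counted with few reads, and among the tested ones the highest wild type mean was that of frpr-19 at 5.30 CPM. Of 71 genes of the receptor families that hold known FLP receptors, 35 passed the filter, and 0 were called by limma-voom, 0 at an unadjusted p under 0.05, and 0 by limma-trend or in the authors' deposited table. Limma-voom called 11.5% of all tested genes higher and 7.18% lower, and at these low reads 0 calls is not read as a lack of change. Their median log2 fold change was 0.33, with a range from −0.76 to 0.76, and their summed level was 105 to 113 CPM in wild type and 121 to 130 CPM in linc-4. For the tested receptors of the ligands above, npr-3 had 2.76 ± 0.0633 and 4.0 ± 0.440 CPM in wild type and linc-4, the groups did not overlap, and it did not pass (log2 fold change 0.48, limma-voom adjusted p = 0.21). npr-22 had 1.66 ± 0.397 and 1.96 ± 0.156 CPM and dmsr-1 had 4.62 ± 0.626 and 4.97 ± 0.658 CPM in the same order. npr-4 had 1.77 ± 0.319 and 2.44 ± 0.534 CPM, npr-5 had 4.06 ± 0.712 and 4.04 ± 0.862 CPM, and egl-6 had 2.71 ± 0.589 and 3.91 ± 0.742 CPM in wild type and linc-4 (SD, n = 3 each). npr-1, the receptor of flp-18 and flp-21 peptides, had 2 to 7 reads per library and was not tested, and neither was npr-11.

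Other peptide families were counted with the same fit. Among nlp genes outside the range nlp-24 to nlp-34, a group known from epidermal defence, 11 of 61 tested rose and 0 fell, at a median of 0.37 on the log2 scale, and of insulin-like peptides 5 of 26 rose and 0 fell, at a median of 0.41. Of all tested genes 11.5% were called higher. The nlp count was 22 with upper-quartile scaling and 7 in the authors' deposited table, 7, 15 and 5 when wild type 1, 2 or 3 was left out, and 8, 2 and 7 when linc-4 1, 2 or 3 was left out. For insulin-like peptides the count was 9 with upper-quartile or pan-neuronal scaling, 3, 6 and 3 when a wild type library was left out, and 3, 2 and 3 when a linc-4 library was left out, each in the order of replicate numbers. The calls over all 13778 tested genes moved too, from 1591 higher to 2065 with upper-quartile and 1958 with pan-neuronal scaling. The authors' deposited table calls 6.59% of its genes higher, and the fits without 1 library called 4.98% to 12.4%. The moves of the nlp and insulin-like counts are therefore not read as results about these families. Both medians are near the 0.31 of the flp genes, and no difference between the families was tested.

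Levels of different genes were compared as RPKM, the CPM divided by the kilobases of exon. On this scale flp-1 had the highest wild type level of the family, 169 ± 25.5, above flp-24 at 114 ± 13 in every library (SD, n = 3). flp-22 at 96.8 ± 9.87, flp-14 at 95 ± 12.2 and flp-8 at 77.6 ± 12.6 followed, and neighbours in this stretch overlapped in range. At the low end, flp-3 at 9.71 ± 1.25, flp-13 at 8.38 ± 0.172 and flp-34 at 5.04 ± 0.928 did not overlap each other. The exon annotation differs from the deposited gene ends by 5755 bases for flp-4 and by 147 and 103 bases for flp-14 and flp-9, so levels and ranks depend on the annotation used. Of 30 neighbouring pairs in the order, 26 overlapped. In linc-4, flp-14 was ranked 2 and flp-8 ranked 3, at 181 ± 18.5 and 151 ± 13.7, from ranks 4 and 5 in wild type, and the first place stayed with flp-1 at 198 ± 24.6. Across the 30 tested genes, the Spearman correlation of wild type and linc-4 levels was 0.97, and no gene moved by more than 5 places.

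**Figure D5:**
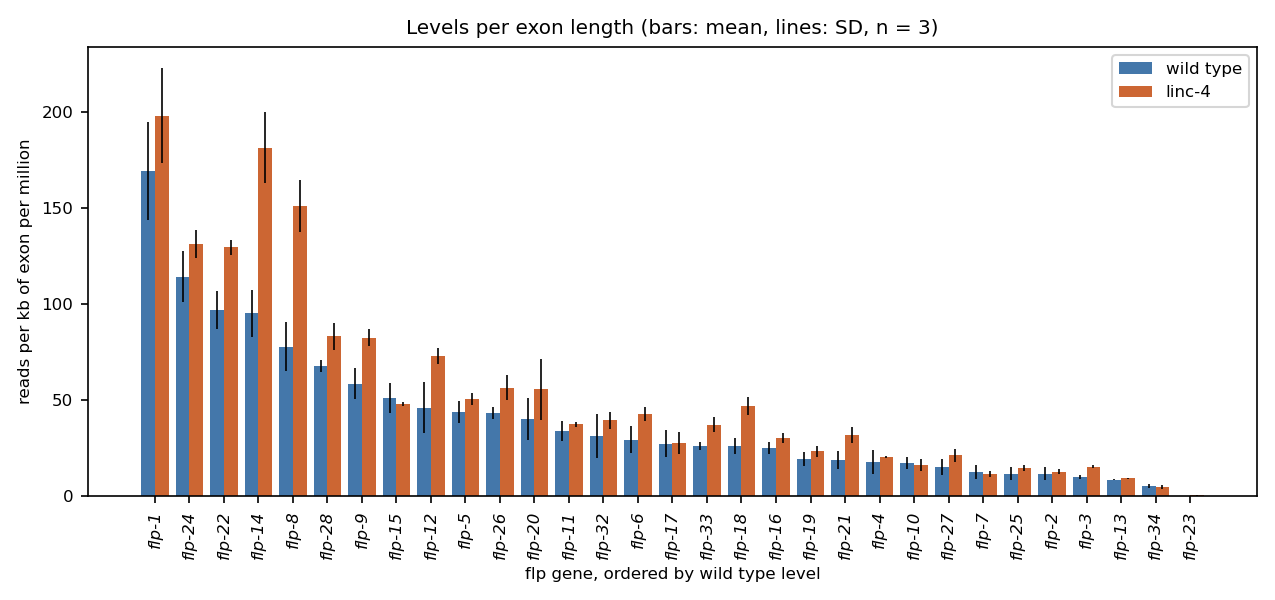
Mean RPKM of each flp gene (CPM per kilobase of exon) in wild type and linc-4, ordered by the wild type level (bars start at 0, lines are the SD of 3 libraries). Wild type levels run from 169 for flp-1 to 5.04 for flp-34, with flp-23 at 0, and the linc-4 bars of flp-14 and flp-8 reach 181 and 151.

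The flp genes are spread over all chromosomes, with 13 on X, 5 each on III and IV, 3 each on II and V and 2 on I. Of the 13 on X, 4 rose, where 8.41% of the tested genes of X rose, and of the 17 tested on the other chromosomes 4 rose, where 12.0% of the tested genes rose. The median log2 fold change was 0.39 on X and 0.28 elsewhere for flp genes, and 0.05 and −0.03 for all tested genes. flp-28, flp-3 and flp-2 lie in 1 stretch of X on the same strand, with gaps of 4002 and 1465 bases between them, inside the gene W07E11.1 of the opposite strand, with which they share 0 exon bases. Of these neighbours flp-3 rose, while flp-28 at 35, 37.8 and 37.9 CPM in wild type and 48.7, 46.3 and 41.1 CPM in linc-4 did not pass (log2 fold change 0.29, 95% interval −0.03 to 0.60), nor did flp-2.

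Some members share exon bases with other genes, and no source used here states whether strand was used in counting, so reads of such stretches cannot be assigned to a gene with certainty. Among the genes that rose, only flp-8 does, sharing 21 bases with the non-coding RNA gene F31F6.11. flp-11 shares 17 bases with tmem-135, flp-16 shares 14 with romo-1, flp-33 shares 8 with ntr-1, flp-17 shares 7 with a piRNA gene, and flp-19 shares 5 with abl-1.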

How the data were processed

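Polyadenylated RNA of 3 wild type and 3 linc-4 libraries of adult worms was measured by RNA sequencing. Per the submitters' processing notes the tools were DESeq2 1.22.2, HTSeq 0.12.4, TopHat2 2.1.1 and cutadapt 2.10, with build WBcel235; no source used here states their settings or whether strand was counted. For each gene the authors deposited raw read counts, size-factor-normalized counts, a log2 fold change, and p-values before and after adjustment. A score, the Wald statistic that the authors deposited, was not used. In 24515 rows the count is a question mark, which was read as no value. The columns could therefore not be registered as counts, edgeR was not run, and limma-voom (limma 3.58.1, R 4.3.3) was the test.

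The filter asked for the CPM of 10 reads in a library of median size, in 3 libraries, and for 15 reads in all; it left 13778 genes and 99.7% to 99.8% of the reads. Libraries were scaled by trimmed means of M values, trimming 30% of the log ratios and 5% of the abundances. Tests were two-sided with genotype as the only term, and p-values were adjusted by Benjamini-Hochberg over all tested genes, with a threshold of 0.05. Exon unions for RPKM came from Ensembl release 115 (WBcel235), whose gene ends equal those of the table in 7 of 31 flp genes and differ by a median of 8 and at most 5755 bases (flp-4); levels per length depend on this annotation. The fit was tested on simulated counts.

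The members, the gene lists and the rule for named genes were chosen with earlier results of these data known. The rule took linc-4, each called flp gene, the 3 highest and 3 lowest fold changes and levels, flp genes with a described role, flp genes not tested, and called genes of the neuronal and pathway lists. Other members, some uncalled enzymes and the receptors were named after their values were seen, and lists of other tissues are given as counts. No 2 libraries of a group agreed within counting noise (chi-square over degrees of freedom at least 5.35), so none was treated as a repeat. Alternatives were other scalings, filters and tests, a replicate block, leaving out each library and the authors' deposited comparison. The pan-neuronal sum without snb-1 was added after seeing the data.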

Additional observations from a re-analysis of the deposited data

How the results depend on the processing

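The 8 flp genes that rose kept their direction under every alternative run. They were picked as called in these same libraries, and for each all linc-4 libraries lay above all wild type libraries. Their direction could hardly turn, so it is not read as support. The 8 genes also kept the call with median-of-ratios scaling, both other filters and limma-trend on log2(CPM + 1), while limma-trend on log2(CPM + 0.1) called 7. Upper-quartile scaling gave 10 calls, a median of 0.42, log2 fold changes of 0.022 for flp-10, 0.014 for flp-15 and 0.062 for flp-34, and 5 called genes of body wall muscle, 22 of nlp genes and 9 of insulin-like peptides. Scaling to pan-neuronal genes gave 10 calls, a median of 0.41, values of 0.013 for flp-10, 0.0068 for flp-15 and 0.067 for flp-34, and 4 muscle and 9 insulin-like calls. Upper-quartile and pan-neuronal scaling called 2065 and 1958 of all 13778 tested genes higher, against 1591 in the main fit. In the authors' deposited table, the flp calls number 4, flp-17 is at −0.0034, and the lists of peptide processing, epidermis and nlp genes hold 1, 1 and 7 calls. That table calls 6.59% of its genes higher, against 11.5% of all tested genes in the main fit. Over the 6 fits without 1 library, 3 to 7 flp genes were called higher, with 0 to 2 processing, 2 to 5 intestine, 1 to 3 epidermis, 1 to 3 muscle, 5 to 9 sperm, 1 to 11 germline, 6 to 13 oocyte, 2 to 15 nlp and 2 to 6 insulin-like calls. Those fits called 4.98% to 12.4% of all tested genes higher, and 158 to 1196 genes lower. Over the same fits log2 fold changes ran from −0.088 to 0.32 for flp-2, −0.39 to 0.060 for flp-7, −0.24 to 0.067 for flp-10, −0.17 to 0.030 for flp-15, −0.14 to 0.24 for flp-17 and −0.27 to 0.088 for flp-34. Per kilobase of coding length, the median wild type level of the family was 53.7 in place of 27, and flp-24 ranked 1 and flp-1 ranked 2. The cause of these differences was not tested.

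With the replicate number as a block, 5 flp genes were called (flp-8, flp-12, flp-14, flp-18 and flp-21), and the lists of peptide processing, intestine, epidermis, nlp genes and insulin-like peptides held 0, 2, 1, 7 and 3 calls. The block fit called 1210 of 13778 tested genes higher (8.78%) and 504 lower, against 1591 and 989 in the main fit. Deviations of libraries with the same number correlated at 0.09, −0.09 and −0.34, so the numbers were not taken as pairs. The edgeR alternative was not run. Depth limits the low members: flp-23 had at most 2 reads in a library, and wild type 1 held 3736372 counts.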
